A study of Mus musculus with 59 samples.

Results

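Klf2, Klf5, Zfp42, Tbx3 and Prdm14 are 5 genes for transcription factors of the naive state of pluripotency, described here by the CTCF and SMARCA5 peaks around them. They were chosen by name from 21900 protein-coding genes, with earlier results of these data known. Every peak that overlapped a gene's span widened by 50 kb on each side was taken as a peak of that gene's window. The 5 windows were between 102.6 and 114.7 kb long. Over all 16 deposited peak lists they held 62 sites, where a site is a set of overlapping peaks: 8 at Klf2, 15 at Klf5, 13 at Zfp42, 17 at Tbx3 and 9 at Prdm14. Sites are numbered along the chromosome within each window.

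The naive state is the ground state of mouse embryonic stem cells (ESCs), held by leukaemia inhibitory factor and by blocking MEK and GSK3 signalling. Klf2 and Klf5 are zinc-finger factors of the Krüppel-like family that sustain self-renewal together with Klf4. Zfp42, also called Rex1, is a zinc-finger gene whose expression marks naive cells. Tbx3, a T-box factor, joins the network downstream of leukaemia inhibitory factor, and Prdm14 holds down FGF signalling and the de novo DNA methyltransferases and is needed for primordial germ cells. CTCF is a zinc-finger protein that binds a long DNA motif and stops cohesin, which sets the ends of chromatin loops and separates enhancers from promoters that they do not serve. SMARCA5 is the ATPase of ISWI complexes, which space nucleosomes.

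The study used ChIP-seq, sequencing of DNA pulled down with a chromatin protein, to map CTCF in mouse fibroblasts undergoing reprogramming with Oct4, Sox2, Klf4 and c-Myc (OSKM) and in ESCs, and mapped SMARCA5 in ESCs. It held 59 samples, 31 of ChIP and 28 of input DNA, and 1 to 3 ChIP samples stood behind each deposited list. A peak in these lists is an interval of 400 bp with no strength of its own, so a site is either listed or not. Each group had 1 list, so no difference below has a replicate check, and the Wilson 95% intervals beside shares cover counting error only.

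The groups were as follows. Fibroblasts carrying an inducible lentiviral OSKM cassette received an shRNA against Ctcf or, as control, one against luciferase, and were taken at day 0, as sorted Thy1+ cells (days 3 and 9), SSEA1- Thy1- cells and SSEA1+ cells (both on days 6 and 9), and as day 12 Oct4-GFP+ cells. Thy1 is a fibroblast surface protein, SSEA1 a surface sugar of cells on the way to pluripotency, and Oct4-GFP a reporter of the pluripotent state. Unsorted cells of day 10 were infected with retroviral OSKM together with Ctcf and an shRNA against Smarca5, with OSKM and Ctcf, or with OSKM and a control. ESCs of the E14Tg2a line, grown with leukaemia inhibitory factor, serum and MEK and GSK3 inhibitors, were Smarca5 knockout, wild type, or carried an overexpressed biotin-tagged SMARCA5 that was pulled down with streptavidin. The knockout was made with Cas9 nickase, and the tagged cells were grown from single clones. Peaks measure neither mRNA nor protein, so the knockdowns, the knockout, the added Ctcf and the labelled cell types could not be checked in these data. For the day 3 Thy1+ samples the title and the other labels disagree on which received the Ctcf shRNA, and the Thy1+ lists are used here as the titles group them.

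The lists differed in length, which bears on every count below. The day 0 lists were the shortest, with 23600 peaks under Ctcf shRNA and 28838 in the control. The sorted lists held 44283 to 45291 peaks under Ctcf shRNA before day 12 and 35803 at day 12, against 50890 to 53043 in the controls. Those of day 10 held 43356 to 52252, the CTCF lists of ESCs 89567 in the knockout and 83173 in wild type, and the SMARCA5 list 46965. Peaks had common start positions within the sorted lists (77.2% to 95.5% of the shorter list of each pair), within the day 10 lists (99.1% to 99.7%) and within the ESC lists (86.1% to 97.1%), whereas the day 0 lists matched each other at 2.18%. Depth is not given in the sources used here.

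One sequence ties a site of these windows to a CTCF motif, and it is shown with the sequences upstream of both member genes for which RefSeq promoters of GRCm38.p6 (the build mm10) were at hand, Klf2 and Zfp42 (2 of the 5). Tbx3os2 is a long non-coding RNA gene beside Tbx3, and its promoter, 250 bases before to 50 after the start at chr5:119691169-119691468 on the minus strand, overlaps Tbx3 site 8. Capitals mark the CTCF core consensus in Tbx3os2, the octamer ATTTGCAT, bound by Oct4 and other POU factors, in Zfp42, and the GC box GGGCGG, bound by Sp and Krüppel-like factors, in Klf2. The Klf2 sequence is chr8:72318812-72319061 on the plus strand and the Zfp42 sequence chr8:43307010-43307259 on the minus strand, each the 250 bases before the start.
Tbx3os2: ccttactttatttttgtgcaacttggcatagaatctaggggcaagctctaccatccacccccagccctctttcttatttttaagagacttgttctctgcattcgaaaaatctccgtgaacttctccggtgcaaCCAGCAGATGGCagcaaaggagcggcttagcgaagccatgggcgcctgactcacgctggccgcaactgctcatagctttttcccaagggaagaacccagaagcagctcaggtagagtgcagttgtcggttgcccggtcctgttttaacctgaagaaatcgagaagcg
Klf2: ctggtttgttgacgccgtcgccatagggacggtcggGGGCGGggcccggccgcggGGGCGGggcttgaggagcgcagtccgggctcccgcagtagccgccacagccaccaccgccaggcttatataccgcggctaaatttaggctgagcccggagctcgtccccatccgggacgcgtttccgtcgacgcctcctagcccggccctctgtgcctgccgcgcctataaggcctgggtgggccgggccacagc
Zfp42: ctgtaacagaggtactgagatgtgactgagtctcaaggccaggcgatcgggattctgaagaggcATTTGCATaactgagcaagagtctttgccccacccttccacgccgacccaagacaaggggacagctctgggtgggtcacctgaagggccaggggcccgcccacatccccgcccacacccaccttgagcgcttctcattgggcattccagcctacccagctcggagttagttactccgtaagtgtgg

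The CTCF core consensus, searched on both strands, was found once in the Tbx3os2 sequence, at bases 134 to 145 (chr5:119691324-119691335), as CCAGCAGATGGC. It was found in 183 of 32851 RefSeq promoters (0.557%), and in 159 of the 4990 that overlapped a wild-type ESC CTCF peak (3.19%). Tbx3 site 8 was in all 16 lists. The centre of the core lay 46 bp from the peak's centre under Ctcf shRNA at day 0 and 0 bp from it in the day 0 control, 11 bp in each of the 8 sorted lists, 17 bp in the day 10 lists and 16 bp in the ESC lists. Over the promoters whose core fell in a peak, the median distance was 14 bp in the day 0 control, 10 bp in the day 12 control, 13 bp with OSKM at day 10, 14 bp in wild-type ESCs and 15 bp for SMARCA5. The core was not found upstream of Klf2 or Zfp42, whose 250 bases overlapped no site. The nearest sites were Klf2 site 5 at 532 bp and Zfp42 site 7 at 961 bp. In the same 250 bases the core was found in 0.508% of promoters, the octamer in 1.6% and the GC box in 32.7%. The octamer and the GC box were chosen with these sequences in view. Zfp42 held the octamer at bases 65 to 72 and GC boxes on the other strand at bases 160 to 165 and 172 to 177, and Klf2 held GC boxes at bases 37 to 42 and 56 to 61. No motif overlapped another.

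Over the control stages the 5 windows together held the most peaks at day 12. Their summed CTCF peaks numbered 9 at day 0, 21 in Thy1+, 19 in SSEA1- Thy1-, 20 in SSEA1+ and 34 in day 12 Oct4-GFP+ cells, beside 16 in unsorted day 10 OSKM cells and 50 in wild-type ESCs. Per 10000 peaks of each list this was 3.12, 3.98, 3.73, 3.85 and 6.41, beside 3.69 and 6.01. The sorted control lists were of nearly equal length. The day 12 control had 3 ChIP samples, and each other sorted control had 2, of different days. What part this had in the step at day 12 was not tested. The size of the step depended on the window. With spans widened by 10 kb the control counts were 8 in Thy1+, 5 in SSEA1- Thy1-, 5 in SSEA1+ and 9 in day 12 cells. With 100 kb they were 40, 38, 38 and 57. Over the 5 genes the median count per window was 2 at day 0, 4, 4, 5 and 6 in the sorted controls in the order above, 3 with OSKM at day 10 and 10 in ESCs. Over all 21900 protein-coding genes it was 3 at day 0, 5 in each sorted control list, day 12 included, 4 with OSKM at day 10 and 8 in ESCs. Longer genes have longer windows, so the median of all genes is a guide and not a match for these genes.

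The genes differed in where the step fell. Klf5 had 0 peaks at day 0, 1 in each of the Thy1+, SSEA1- Thy1- and SSEA1+ controls, 6 at day 12 and 10 in ESCs. Tbx3 had 4, 8, 6, 6 and 11 over the control stages and 15 in ESCs, the most of the genes. Zfp42 had 1, 4, 4, 5 and 6, and 11 in ESCs. Prdm14 had 2, 5, 5, 5 and 7, and 8 in ESCs. Klf2 had 2, 3, 3, 3 and 4, and 6 in ESCs, so its window changed least in number. With 1 list a stage, which neighbours in this order differ beyond their spread could not be determined.

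**Figure D1:**
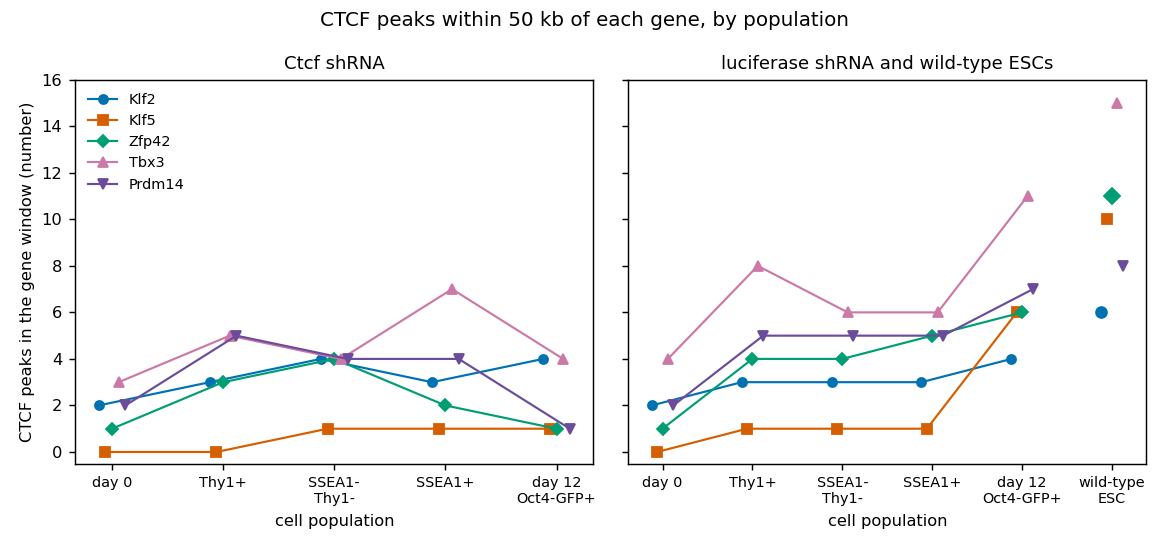
CTCF peaks (number, vertical axis) in the 50 kb window of each gene in each cell population (horizontal axis), with Ctcf shRNA at left and with luciferase shRNA, plus wild-type ESCs, at right; each point is 1 list. At day 12, Prdm14 had 1 peak with Ctcf shRNA and 7 in the control, while Klf2 had 4 in both.

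Sites of the day 12 control that wild-type ESCs shared, but that the controls of day 0 and of Thy1+ cells both lacked, called gained here, made up 12 of the 34 window peaks (35.3%, interval 21.5 to 52.1), where the share over the whole day 12 list was 17.2%. Klf5 had 5 of 6, Tbx3 4 of 11, Zfp42 2 of 6, Prdm14 1 of 7 and Klf2 0 of 4. Klf5 thus supplied 5 of the 12, and without its window the share was 25%. Among the sorted controls, 13 of the 34 peaks were found at day 12 alone (38.2%, 23.9 to 55), where the list's share was 10.7%. These included Klf5 sites 1, 11, 12, 13 and 14, Tbx3 sites 3, 12, 14 and 15, Zfp42 site 7, Prdm14 sites 2 and 3, and Klf2 site 4. The day 0 control is the shortest control list, and its part in the gained share was not tested. The share at day 12 alone does not use the day 0 list, but it is another class, which does not require the site in ESCs.

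The day 12 windows largely held ESC sites. Of the 34 day 12 control peaks, 31 were in wild-type ESCs (91.2%, 77 to 97; whole list 93.8%), and of the 50 ESC peaks 31 were in the day 12 control (62%, 48.2 to 74.1; whole list 59.6%). Both shares were near those of all peaks. A further 17 of the 50 ESC peaks were in no control list of reprogramming cells (34%, 22.4 to 47.8; whole list 24.1%). They numbered 5 of 11 at Zfp42, 5 of 10 at Klf5, 3 of 6 at Klf2, 2 of 15 at Tbx3 and 2 of 8 at Prdm14. No site of the day 0 control was missing at day 12 (0 of 9). Present in Thy1+ control cells but missing at day 12 were 3 sites, Klf5 site 3 and Tbx3 sites 6 and 7, and both Tbx3 sites were in ESCs. Whole-list shares for the day 0 and Thy1+ counts were not computed, so neither count is read as a trait of these genes.

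Within the gene spans lay 12 of the 62 sites, 9 of them in wild-type ESCs and 4 in the day 12 control. Shares of such sites over all genes were not computed, so these counts have no background. Prdm14 site 4 (chr1:13117687-13118119) was in all 16 lists. Tbx3 site 4 (chr5:119670490-119670928), at the low-coordinate end of Tbx3 and also inside its antisense gene Tbx3os1, was in 15 lists and missing under Ctcf shRNA at day 12. Klf5 site 4 (chr14:99301484-99301913) was in no day 0 or Thy1+ list. It was in the SSEA1- Thy1- control, in both SSEA1+ lists, in the day 12 control, and in all day 10 and ESC lists. Zfp42 site 7 (chr8:43305650-43306049), 1.2 kb into the gene from its start, was in the day 12 control, both ESC CTCF lists and the SMARCA5 list, and in no other. Klf5 site 3 (chr14:99298935-99299436) was in the Thy1+ control, the 3 day 10 lists and the SMARCA5 list but in neither ESC CTCF list.

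Sites differed in how many lists held them. In all 15 CTCF lists were 6 of the 62: Klf2 sites 1 and 8, Zfp42 site 10, Tbx3 sites 8 and 16 and Prdm14 site 4. All but Zfp42 site 10 also held SMARCA5. Klf2 sites 1 and 8 lay 46.1 kb below and 44.1 kb above the gene, the second inside Eps15l1, so the Klf2 window was flanked by a pair of constant sites. Tbx3 had both of its constant sites on the high-coordinate side, at 6.4 and 28.1 kb, and Klf5 had none. At the other extreme, 22 of the 62 sites were in the ESC lists and in no other CTCF list: 7 at Zfp42, 6 at Klf5, 4 at Tbx3, 3 at Klf2 and 2 at Prdm14. Of these 16 were in both the knockout and the wild-type list. Genome-wide shares of constant sites and of ESC-only sites were not computed, so these counts describe the windows without a background.

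**Figure D2:**
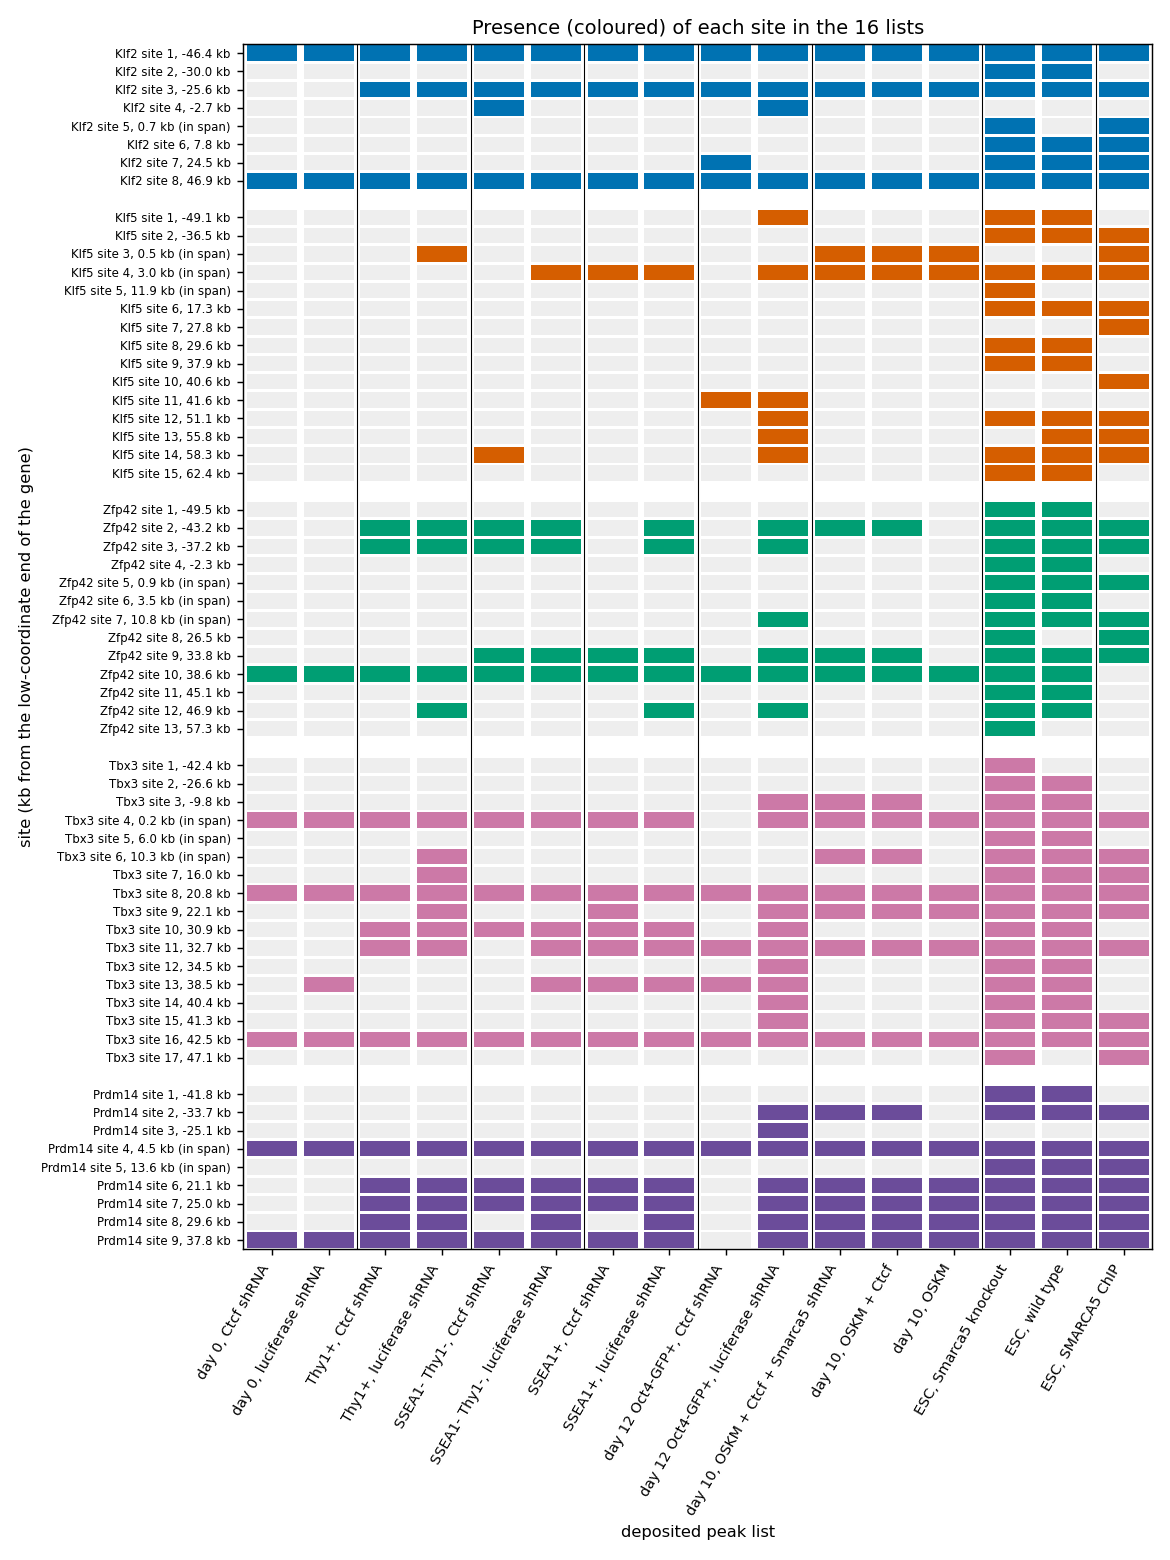
Presence (coloured) or absence (grey) of each of the 62 sites (rows, with the distance in kb from the low-coordinate end of the gene) in the 16 lists (columns). Klf2 sites 1 and 8, Tbx3 sites 8 and 16 and Prdm14 site 4 fill every column, and the columns of the day 12 cells differ most between Ctcf shRNA and luciferase shRNA.

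Under Ctcf shRNA, the largest share of window peaks was absent at day 12. In day 12 Oct4-GFP+ cells the windows held 11 peaks with Ctcf shRNA and 34 in the control, and 24 of the 34 control peaks were absent (70.6%, 53.8 to 83.2), where 41.4% of the whole control list were absent. The Ctcf shRNA list of day 12 was also shorter than its control, 35803 against 53043 peaks. The median count per gene was 1 with Ctcf shRNA and 6 in the control over the 5 genes, and 3 with Ctcf shRNA and 5 in the control over all protein-coding genes. The absent peaks numbered 6 of 7 at Prdm14, 5 of 6 at Klf5, 5 of 6 at Zfp42, 7 of 11 at Tbx3 and 1 of 4 at Klf2. Leaving out each gene in turn gave shares between 66.7% and 76.7%. No replicate spread exists against which to set the difference from the list's share.

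In the earlier populations no interval of the absent share lay apart from the background. Absent with Ctcf shRNA were 1 of 9 control peaks at day 0 (11.1%, 1.99 to 43.5; whole list 26.7%), 5 of 21 in Thy1+ cells (23.8%, 10.6 to 45.1; 18.9%; samples grouped by title), 4 of 19 in SSEA1- Thy1- cells (21.1%, 8.51 to 43.3; 18%) and 4 of 20 in SSEA1+ ones (20%, 8.07 to 41.6; 18%). Each interval holds the list's share. With spans widened by 10 kb the shares were 0 of 3 at day 0, 4 of 8 in Thy1+ cells (50%, against 18.9% of the list) and 0 of 5 in the SSEA1+ population, so these shares rest on few peaks and shift with the window. The absent peak at day 0 was Tbx3 site 13. In Thy1+ cells they were Klf5 site 3, Zfp42 site 12 and Tbx3 sites 6, 7 and 9. In SSEA1- Thy1- cells they were Klf5 site 4, Tbx3 sites 11 and 13 and Prdm14 site 8, and in SSEA1+ cells Zfp42 sites 2, 3 and 12 and Prdm14 site 8.

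Few peaks were found with Ctcf shRNA alone: 0 of 8 at day 0 (interval up to 32.4%; whole list 10.4%), 0 of 16 in Thy1+ cells (up to 19.4%; 5.5%), 2 of 17 in SSEA1- Thy1- cells (11.8%; 5.73%), 1 of 17 in SSEA1+ cells (5.88%; 4.51%) and 1 of 11 at day 12 (9.09%; 13.4%). They were Klf2 site 4 and Klf5 site 14 in SSEA1- Thy1- cells, Tbx3 site 9 in SSEA1+ cells and Klf2 site 7, inside Eps15l1, at day 12.

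The day 12 absences fell on different kinds of sites at different genes. At Prdm14, site 4 in the gene was the only one of 7 still listed with Ctcf shRNA. Prdm14 sites 6, 7 and 9, which were in every earlier sorted list with either shRNA, were absent. Site 9 lies inside the neighbouring Ncoa2, a nuclear receptor coactivator gene, and site 6 lies 7.1 kb beyond Prdm14. Site 8, also in Ncoa2, was already missing under Ctcf shRNA in SSEA1- Thy1- and SSEA1+ cells. At Tbx3, sites 8, 11, 13 and 16 on the high-coordinate side remained listed. Sites 9, 10, 12, 14 and 15 on that same side were absent. Site 4 at the end of the gene and site 3, at 9.6 kb below it, were absent too.

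At Zfp42, site 10 alone was listed at day 12 with Ctcf shRNA, 26.5 kb beyond the gene. Sites 2 and 3, 43.0 and 37.0 kb below the gene, were in the Thy1+ and SSEA1- Thy1- lists with either shRNA, and were absent with Ctcf shRNA in SSEA1+ cells and at day 12. Klf5 kept only site 11 (chr14:99340047-99340446), which was in the 2 day 12 lists and in no other. At Klf2 the 3 peaks that remained were sites 1, 3 and 8, which were in all sorted lists with either shRNA, and the 1 absent peak was site 4 (chr8:72316141-72316540), 2.5 kb below the gene.

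**Figure D3:**
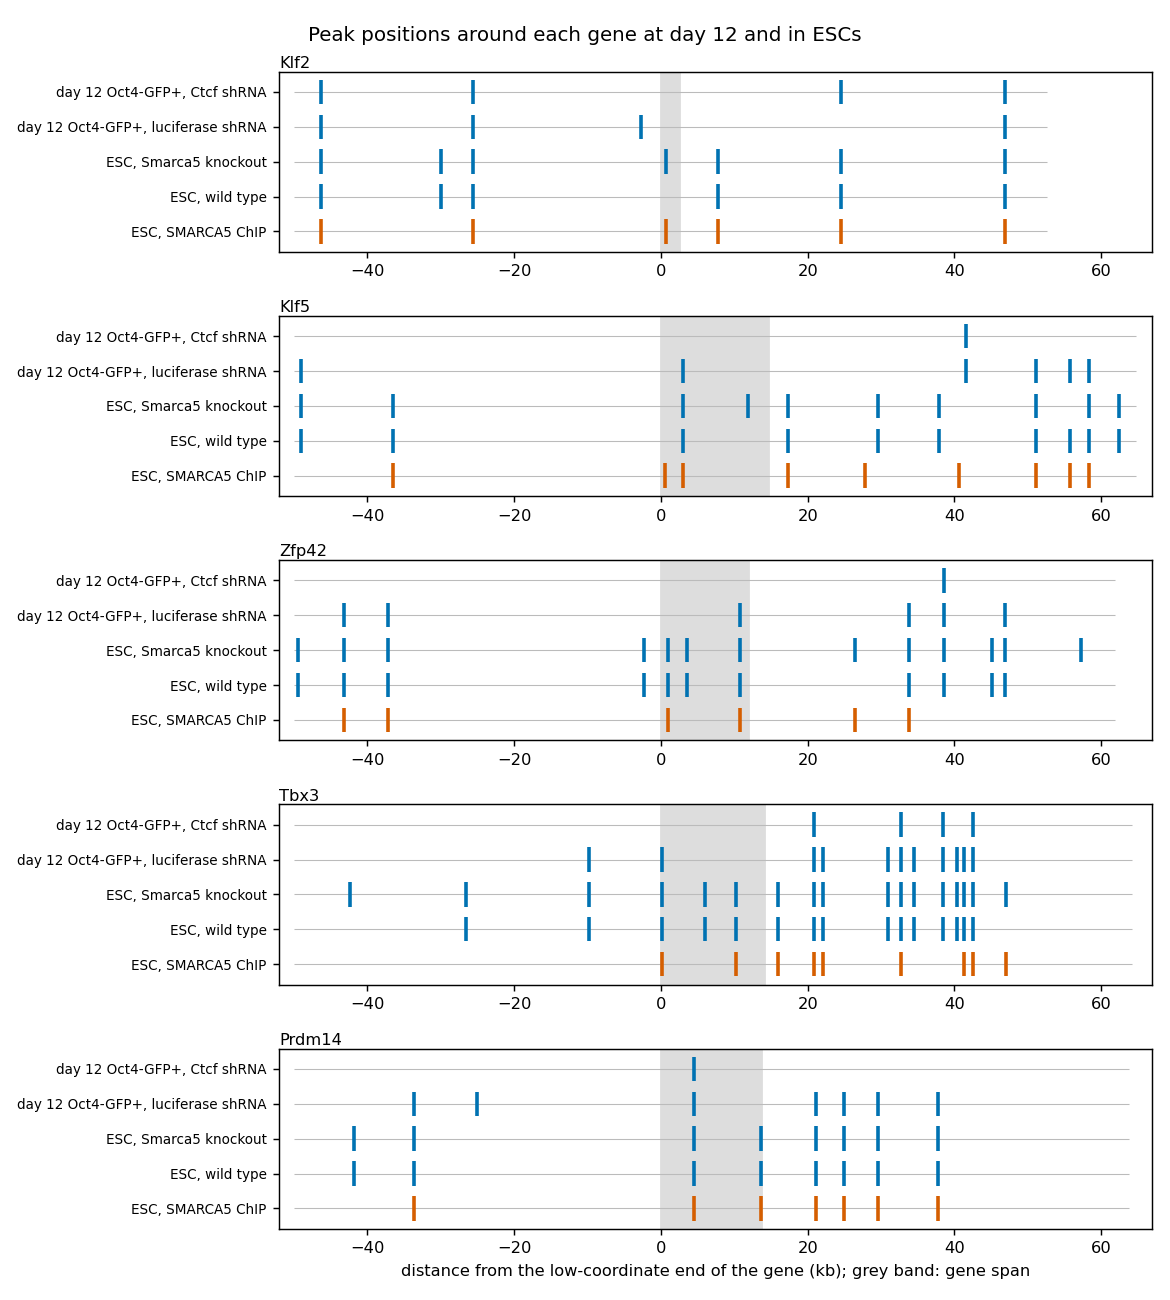
Positions of peaks (ticks, blue for CTCF and orange for SMARCA5) around each gene, as distance in kb from its low-coordinate end, with the gene span in grey; rows are day 12 Ctcf shRNA, day 12 luciferase shRNA, Smarca5 knockout ESCs, wild-type ESCs and SMARCA5. With Ctcf shRNA at day 12, Prdm14, Zfp42 and Klf5 each had 1 tick, against 7, 6 and 6 in the control.

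Of the 13 sites that only day 12 held among the sorted controls, Klf5 site 11 was listed with Ctcf shRNA and the others were absent. The 10 of them that ESCs also held were all absent (10 of 10, 100%, 72.2 to 100), where 75.7% of such peaks of the whole list were. Of the 12 window peaks at day 12 that every other sorted list held with either shRNA, 5 were absent (41.7%; whole list 26%), namely Tbx3 sites 4 and 10 and Prdm14 sites 6, 7 and 9. The share of 41.7% rests on 12 peaks, and no interval was computed for it. Both classes were chosen by the lists that hold them, so each is read against its own whole-list share and not against the other. Peaks were also divided by how many of 3 lists with other start positions (day 0 control, day 10 OSKM and wild-type ESCs) held them. Absent were 15 of 15 found in 1 of these lists (65.5% of such peaks genome-wide), 5 of 8 found in 2 (53.1%) and 2 of 8 found in 3 (21%), and 2 of 3 found in none (63.4%). At the genome-wide share of each of these classes 17.7 of the 34 peaks (51.9%) would be absent, where 24 were. The same reckoning gave 4.78 for the 5 absent from Thy1+ cells, 3.57 for the 4 of the SSEA1- Thy1- population and 3.76 for the 4 of the SSEA1+ one.

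The absent share at day 12 was also counted with and without SMARCA5 at the site in ESCs. Of the 23 day 12 control peaks with SMARCA5, 16 were absent with Ctcf shRNA (69.6%, 49.1 to 84.4; whole list 33.5%), and of the 11 without it 8 were absent (72.7%, 43.4 to 90.3; whole list 50.9%).

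**Figure D4:**
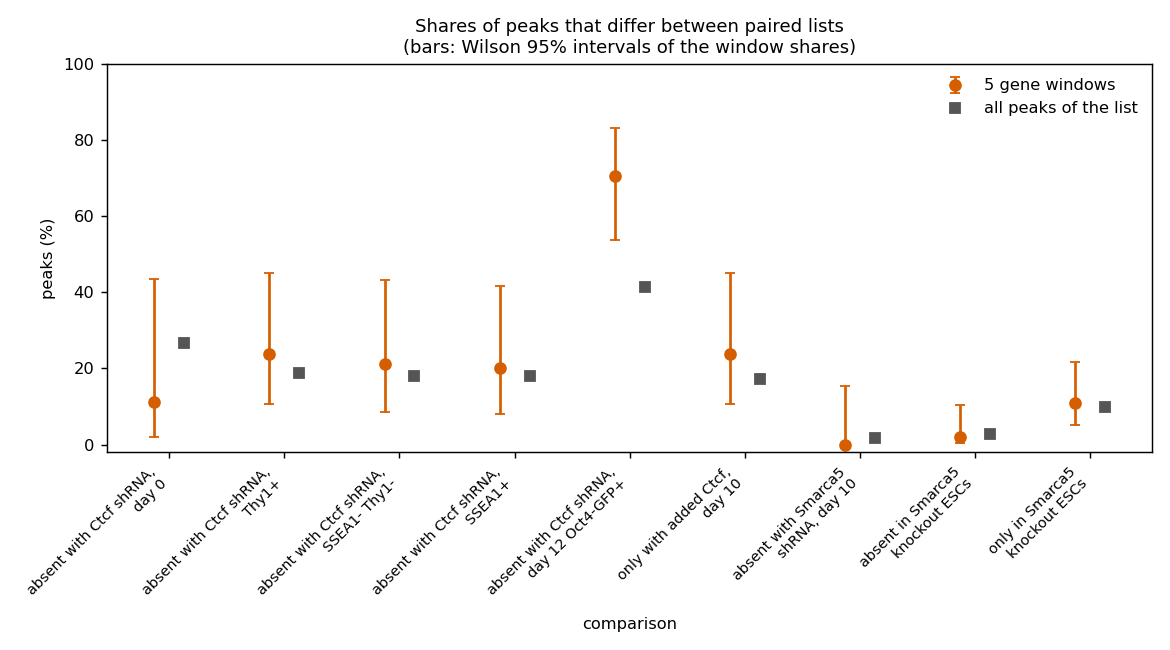
Share of peaks (%) absent or new in paired lists, for the 5 gene windows (circles, bars are Wilson 95% intervals) and for all peaks of the same list (squares). The day 12 Ctcf shRNA share of 70.6% lies above the whole-list share of 41.4%, whereas the intervals of the other comparisons hold their list's share.

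The share of window peaks found with added Ctcf only at day 10 was near the background. The windows held 21 peaks with OSKM and Ctcf and 16 with OSKM, and 5 of the 21 were found with added Ctcf only (23.8%, 10.6 to 45.1; whole list 17.3%). With spans widened by 100 kb it was 5 of 35 (14.3%), below the whole-list share. The 5 were Zfp42 sites 2 (chr8:43251646-43252048) and 9 (chr8:43328635-43329052), Tbx3 sites 3 (chr5:119660539-119660968) and 6 (chr5:119680525-119681088), and Prdm14 site 2 (chr1:13079486-13079887). Zfp42 thereby had 3 peaks with added Ctcf and 1 without. All 5 were in wild-type ESCs (5 of 5, 100%, 56.6 to 100; whole list 75.6%), and 4 were in the day 12 control (80%, 37.6 to 96.4; whole list 35.6%), the exception being Tbx3 site 6. Those 4 were absent with Ctcf shRNA at day 12. In the day 0 control 0 of the 5 were found. For these last counts whole-list shares were not computed, so neither is read as a trait of these genes. None of the 16 OSKM peaks was missing with added Ctcf (0%, up to 19.4; whole list 0.33%). Klf2 had 3 peaks and Klf5 had 2 in both lists.

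With Smarca5 shRNA on top of OSKM and Ctcf, the same window sites were listed. All 21 peaks were listed with and without it, so 0 of 21 were absent (up to 15.5%; whole list 1.72%) and 0 of 21 were new (up to 15.5%; whole list 0.542%). Both intervals hold the whole-list share, so the windows did not stand apart from the background. The Smarca5 shRNA list came from 1 sample, and a change in the strength of binding could not be seen.

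In Smarca5 knockout ESCs the windows held 55 CTCF peaks, against 50 in wild-type ESCs. Of the 50 wild-type peaks 1 was absent in the knockout (2%, 0.354 to 10.5; whole list 2.88%), Klf5 site 13 (chr14:99354282-99354681), which also held SMARCA5. Of the 55 knockout peaks 6 were in the knockout alone (10.9%, 5.1 to 21.8; whole list 9.81%), and both shares lie at the background. The 6 were Klf2 site 5 (chr8:72319593-72319992), inside Klf2, Klf5 site 5 inside Klf5, Zfp42 sites 8 and 13 and Tbx3 sites 1 and 17. None was in any reprogramming list, a count for which no whole-list share was computed. Prdm14 had the same 8 sites in both.

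SMARCA5 was listed at 31 of the 50 wild-type ESC CTCF peaks of the windows (62%, 48.2 to 74.1; whole list 48.6%). By gene this was 7 of 8 at Prdm14, 5 of 6 at Klf2, 6 of 10 at Klf5, 8 of 15 at Tbx3 and 5 of 11 at Zfp42. In the other direction, 31 of 37 SMARCA5 peaks held wild-type CTCF (83.8%, 68.9 to 92.3; whole list 86.1%). The 6 without it were Klf2 site 5, Klf5 sites 3, 7 and 10, Zfp42 site 8 and Tbx3 site 17. Of these 3 held CTCF in the knockout (50%, 18.8 to 81.2; whole list 47.5%), namely Klf2 site 5, Zfp42 site 8 and Tbx3 site 17. Klf5 sites 7 and 10 were in the SMARCA5 list alone.

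Other genes of the pathway were taken from a list of 16 naive and general pluripotency genes and one of 12 formative and primed genes. Like the 5 genes, both lists were chosen with earlier results of these data known. At day 12, Ctcf shRNA left absent 24 of 34 control peaks of the 5 genes (70.6%), 41 of 108 of the naive list (38%) and 29 of 61 of the formative list (47.5%), beside 41.4% of all peaks. The median share per gene was 83.3% over the 5 genes, 38.2% over the naive list and 50% over the formative list. Naive genes ranged from Tfcp2l1, a factor downstream of leukaemia inhibitory factor, with 3 of 3 absent, and Nanog with 5 of 10, to Esrrb with 3 of 10 and Nr5a2 with 0 of 4, both orphan nuclear receptors. The last is the gene of the naive list with none absent. In the formative list the range ran from Fgf5 with 2 of 2 absent and Pou3f1 with 5 of 6, through Otx2 with 1 of 2 and Dnmt3a with 6 of 12, to Lef1 with 2 of 7, T with 2 of 8 and Zic2 with 0 of 3.

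Gained sites were 35.3% of the day 12 peaks at the 5 genes, 36 of 108 (33.3%) in the naive list, with 15 of its 16 genes having at least 1, and 15 of 61 (24.6%) in the formative list, with 6 of its 11 genes that had day 12 peaks, beside 17.2% of all peaks. ESC peaks in no control list of reprogramming cells were 34% at the 5 genes, 54 of 173 (31.2%) in the naive list and 28 of 95 (29.5%) in the formative list, beside 24.1% of all ESC peaks. SMARCA5 lay at 62%, at 107 of 173 (61.8%) and at 56 of 95 (58.9%) of the ESC peaks, beside 48.6% of all of them. Peaks of the knockout alone were 10.9%, 22 of 192 (11.5%) and 7 of 98 (7.14%), beside 9.81% of the whole knockout list. Those seen with added Ctcf alone were 23.8%, 11 of 90 (12.2%) and 9 of 56 (16.1%), beside 17.3% of the whole list. SSEA1+ control peaks absent with Ctcf shRNA were 20%, 14 of 91 (15.4%) and 6 of 51 (11.8%), beside 18% of all. Sox3 had 0 peaks in every list. No test was made of the differences between the lists.

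Likeness of pattern was measured by the summed absolute difference in window counts over the 15 CTCF lists, among protein-coding genes on other chromosomes. Klf5 was nearest to Gm52051 (difference 5), which had 1 peak in the SSEA1+ control, 6 in the day 12 control and 8 in wild-type ESCs. Prdm14 was nearest to Pms2 (5), a mismatch repair gene with 4 peaks under Ctcf shRNA at day 12 and 7 in the control. Tbx3 was nearest to Gcnt2 and Ift52 (7, tied), Zfp42 to Smchd1 (9), and Klf2 to Olfr287 and Tfap2c (4, of 3 tied). Among the naive and formative lists the nearest were Gbx2 for Klf2 (7), Tfcp2l1 for Klf5 (10), Nanog for Tbx3 (11), Sox2 for Prdm14 (13) and, tied, Foxd3 and Nr5a2 for Zfp42 (19).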

How the data were processed

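CTCF (15 groups) and SMARCA5 (1 group) ChIP-seq peak lists of mouse cells were used. The submitters' processing notes name MACS2, HOMER, Bowtie2, Trim Galore, FastQC, Picard, SAMtools, deepTools and bedtools, with build mm10 (GRCm38), but the sources used here give no versions, thresholds or pooling of samples. Each deposited list holds intervals of 400 bp with a peak score of 0 in every line, so peaks could not be ranked, partial loss of binding cannot be seen, and the sources do not give the depth. The inputs have no peak list and stayed out.

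Samples were grouped by title. A peak counted as kept when it overlapped one of the other list by at least 1 bp. Alternatives were a reciprocal overlap of 50%, a partner within 500 bp, spans widened by 10 or 100 kb, and, added after seeing the data, each gene left out and a background weighted by recurrence. Gene spans were those of RefSeq for GRCm38.p6, without strand, so exons and start sites were not used except for genes with RefSeq promoters. All 5 members are named, neighbours where they hold or lie within 10 kb of a site, other pathway genes by counts, and nearest patterns by the smallest difference. The members and lists were chosen with earlier results of these data known. Counting was tested on simulated lists. Python 3.11.15, NumPy 2.4.6 and matplotlib 3.10.9 were used.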

Additional observations from a re-analysis of the deposited data

How the results depend on the processing

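A reciprocal overlap of 50% allows starts to differ by 200 bp, and within a site they differed by at most 186 bp. It therefore could not change the 12 window shares it was applied to and is no check of them. Over all alternatives, those 12 included, 46 of 51 shares stayed within their counting interval. These intervals are wide, and the alternative windows share peaks with the main ones. With spans widened by 10 kb the counts of control peaks were 3 at day 0, 8 in Thy1+, 5 in SSEA1- Thy1-, 5 in SSEA1+, 9 at day 12, 7 with OSKM at day 10 and 17 in wild-type ESCs, and with 100 kb they were 18, 40, 38, 38, 57, 30 and 85. The shares that moved did so with 10 kb alone: absent with Ctcf shRNA were 0% at day 0 (0 of 3), 50% in Thy1+ cells (4 of 8) and 0% in SSEA1+ cells (0 of 5), 0% of wild-type peaks were absent in the knockout (0 of 17), and SMARCA5 was at 76.5% (13 of 17). The share with added Ctcf only was 22.2% (2 of 9) with 10 kb and 14.3% (5 of 35) with 100 kb, against 17.3% of the whole list. The 10 kb windows hold fewer peaks by construction. The day 12 share absent with Ctcf shRNA was 77.8% (7 of 9) with 10 kb and 57.9% (33 of 57) with 100 kb. Gained sites were 33.3% and 29.8%, and 25% to 40.7% with 1 gene left out. No paired analysis was possible because each group has 1 list.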

Other observations

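A few sites followed no simple course. Klf5 site 11 was in the 2 day 12 lists, with Ctcf shRNA and with luciferase shRNA, and in no other list. Prdm14 site 3 (chr1:13088155-13088554) was in the day 12 control alone, and Klf2 site 4 was under Ctcf shRNA in SSEA1- Thy1- cells and in the day 12 control. With Klf5 site 3 these are the 4 sites that a reprogramming list held and both ESC CTCF lists lacked. Klf2 site 7 (chr8:72343315-72343714) was in the day 12 list with Ctcf shRNA, in both ESC CTCF lists and in the SMARCA5 list, and was missing from the day 12 control.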
